A study of Bos taurus with 5 samples.

Results

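In peripheral blood leukocytes of cattle, 44 loci were above both purebred populations in every crossbred population. They were found among 13871 loci kept for a mean of 1 FPKM or more, from 31898 assembled loci in all, so 0.317 percent of the kept loci were chosen. FPKM counts sequenced fragments relative to transcript length and to the mapped fragments of a library, and here it is summed over the transcripts of a locus. A locus was chosen when its lowest crossbred value lay at least 1.5-fold above its highest purebred value on the log2(FPKM + 1) scale, a gap of 0.58. The same values therefore choose the loci and show them raised, so the rise itself is a description and carries no test.

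The data came from 5 libraries, 1 for each population. The purebred populations are labelled N and H, and the labels do not spell out these letters. All 3 crossbreds descend from Holstein and Iran native cattle. The 2 reciprocal crosses hold 50 percent of each breed: the sire was native and the dam Holstein for 50CSN, and the reverse for 50CSH. In 75C the Holstein share is 75 percent and the native share 25 percent. Whether a library holds 1 animal or a pool is not stated, and the labels give no age, sex or treatment. No difference between 2 libraries has a replicate check.

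A gene whose parental alleles act additively is expressed in a cross between the levels of the parents. Levels outside the parental range are called transgressive, and they are studied in livestock because crosses often outperform their parents. Blood leukocytes are a mixture of lymphocytes, monocytes and granulocytes, and their shares differ from animal to animal. In such a mixture more cells of a type and more RNA per cell cannot be told apart. The files pair no locus with a gene name, so the function of each locus and the markers of the leukocyte types could not be read. Loci are therefore named as in the deposited assembly (XLOC), with the Ensembl transcript ID where one is given and the position counted from 1. Of the genome build the sources used here say nothing.

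The summed FPKM of all loci was 735252 for N and 733855 for H, against 843353 for 75C, 852903 for 50CSN and 789089 for 50CSH. It was thus higher in each crossbred than in both purebreds, and the 44 loci after rescaling are described last. Over all kept loci the median difference of crossbreds from purebreds was -0.01 on the log2(FPKM + 1) scale. By any gap at all, 2914 kept loci (21.0 percent) lay above both purebreds in every crossbred and 3092 (22.3 percent) lay below. Past the 1.5-fold gap the balance was unequal, with 44 loci above (0.317 percent) and 196 below (1.41 percent). With every library scaled to the same summed FPKM, 1030 kept loci lay above and 5406 below by any gap, and 14 above and 368 below past 1.5-fold. The deposited tables hold no read totals, so no counting error can be attached to a level.

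Highly expressed loci formed a large share of the 44. A mean of at least 100 FPKM was reached by 13 of the 44 (29.5 percent), against 882 of the 13871 kept loci (6.36 percent). Together these 13 stood at 8328 FPKM for N and 8757 FPKM for H, against 14656 FPKM for 75C, 17327 FPKM for 50CSN and 15383 FPKM for 50CSH. The median absolute difference between H and N on the log2 scale was 0.10 at these loci and 0.14 over the 882. All 13 had a gap larger than the difference between H and N, and 12 had a gap larger than the range of the crossbreds. The rule itself sets a lowest gap, so these counts are a description and nothing is read from them. Highly expressed loci as a whole also leaned upward: 364 of the 882 (41.3 percent) were above both purebreds in every crossbred by any gap, where the figure for all kept loci was 21.0 percent. Below both purebreds in every crossbred by any gap were 154 of the 882.

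The most abundant locus of the 44 was XLOC_005054 (ENSBTAT00000027713), in the span from 54710813 to 55860965 of chromosome 13. It was at 2264 FPKM for N, 2314 FPKM for H, 3978 FPKM for 75C, 4732 FPKM for 50CSN and 4054 FPKM for 50CSH. The crossbred mean was 1.86 times the purebred mean. XLOC_008716, a locus of 345 nt without an Ensembl ID on chromosome 17 from 41908770 to 41909114, stood at 1163 FPKM for N and 1135 FPKM for H, against 1795 FPKM for 75C, 2245 FPKM for 50CSN and 2104 FPKM for 50CSH. On the X chromosome from 14580248 to 14580511, XLOC_031814 was at 1116 FPKM for N, 1243 FPKM for H, 1883 FPKM for 75C, 2073 FPKM for 50CSN and 1910 FPKM for 50CSH. At all 3 loci 50CSN was the highest library and 75C the lowest crossbred.

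XLOC_013546 (ENSBTAT00000013301), on chromosome 21 from 13267965 to 13268433, was at 762 FPKM for N, 884 FPKM for H, 1414 FPKM for 75C, 1708 FPKM for 50CSN and 1454 FPKM for 50CSH. For XLOC_005776 (ENSBTAT00000025484), on chromosome 14 from 23167506 to 23168802, the levels were 655 FPKM for N, 703 FPKM for H, 1198 FPKM for 75C, 1765 FPKM for 50CSN and 1517 FPKM for 50CSH. The crossbred mean was 1.85 times the purebred mean at the former locus, and the latter had the larger ratio. XLOC_023060 (ENSBTAT00000012550), on chromosome 5 from 61760743 to 61770224, stood at 633 FPKM for N and 671 FPKM for H, against 1021 FPKM for 75C, 1189 FPKM for 50CSN and 1024 FPKM for 50CSH. Here too 50CSN was highest, and the purebreds differed by 0.08 on the log2 scale. A transcript without an Ensembl ID made up 95.04 percent of XLOC_023060.

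Of the remaining 7 loci in this range, XLOC_020475 (ENSBTAT00000043998), on chromosome 3 from 70981042 to 70981471, had nearly equal purebred levels. It was at 307 FPKM for N and 308 FPKM for H, and at 495 FPKM for 75C, 645 FPKM for 50CSN and 602 FPKM for 50CSH. The widest gap of the 13 belonged to XLOC_010889 (ENSBTAT00000040741), in the span from 8734352 to 8883076 of chromosome 19, with a gap of 0.84. Its levels were 169 FPKM for N, 145 FPKM for H, 304 FPKM for 75C, 420.3 FPKM for 50CSN and 450.5 FPKM for 50CSH. XLOC_001889, in the span from 22589955 to 23138479 of chromosome 10, was at 329 FPKM for N, 319 FPKM for H, 674 FPKM for 75C, 796 FPKM for 50CSN and 499 FPKM for 50CSH, and it was the 1 locus of the 13 whose crossbreds were spread by more than the gap. On an unplaced sequence, XLOC_028686 was at 500.3 FPKM for N, 574 FPKM for H, 996 FPKM for 75C, 888 FPKM for 50CSN and 1007 FPKM for 50CSH. XLOC_025902, of 139 nt on chromosome 7, was highest in 75C, at 414 FPKM, with 288 FPKM for 50CSN and 273 FPKM for 50CSH, against 121 FPKM for N and 171 FPKM for H. XLOC_000666 (ENSBTAT00000018888, chromosome 1) and XLOC_031368 (ENSBTAT00000030053, X chromosome) completed the group, with crossbred means of 1.72 and 1.75 times the purebred means.

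**Figure D1:**
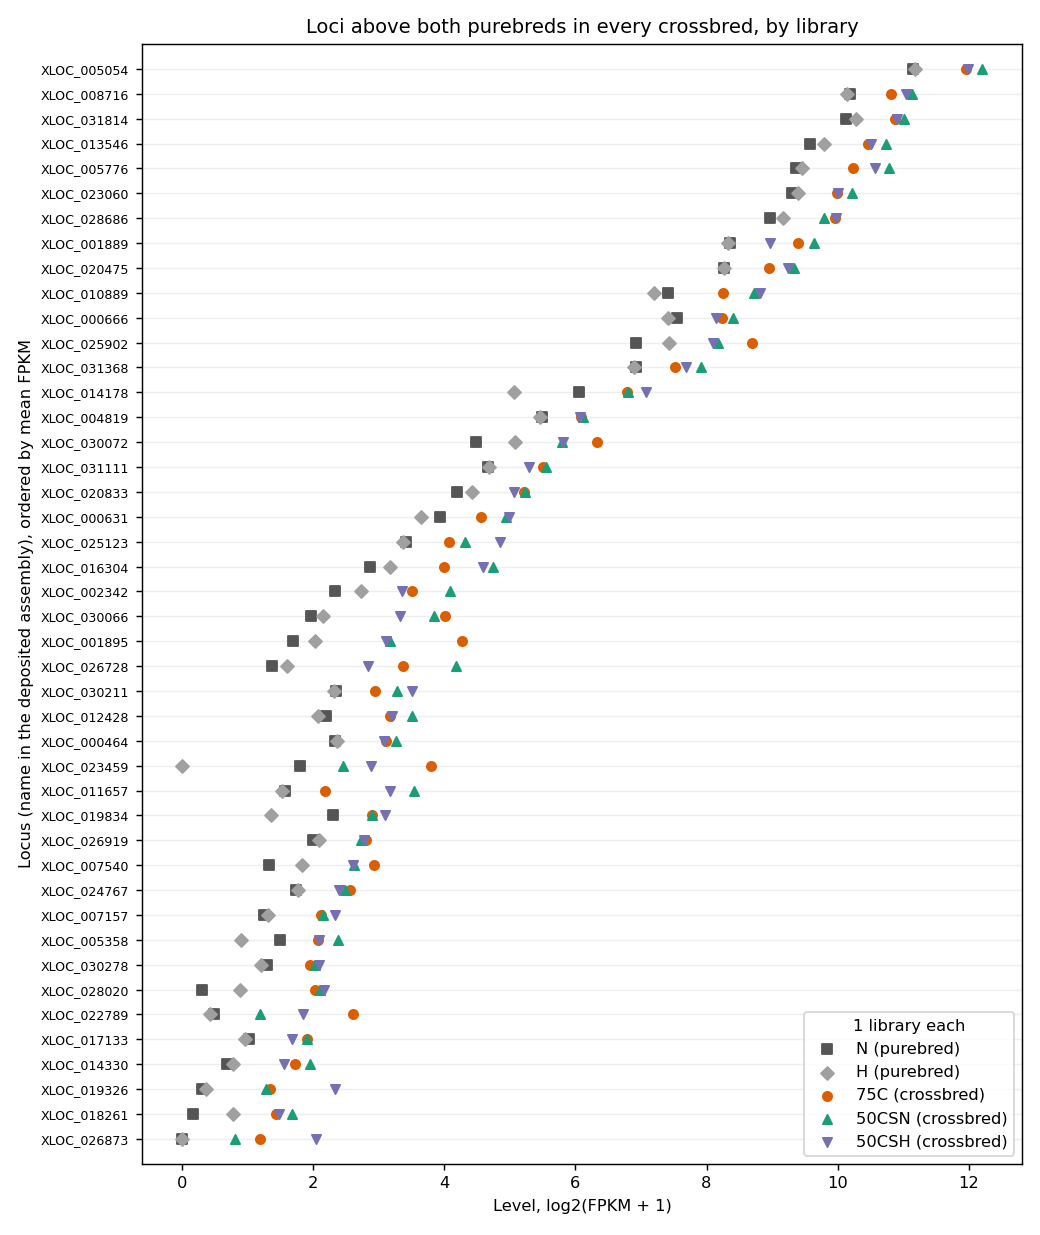
Level of each of the 44 loci in the 5 libraries, as log2(FPKM + 1) on the x axis, with loci ordered by mean FPKM on the y axis. Each point is 1 library; the grey symbols are the purebreds N and H and the coloured symbols the crossbreds. In every row the 3 coloured symbols lie to the right of both grey ones, as the choice of loci requires.

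Between 10 and 100 FPKM lay 8 of the 44 (18.2 percent), against 46.0 percent of all kept loci. XLOC_016304, on chromosome 24 from 50818021 to 50822849, carries 3 Ensembl IDs including ENSBTAT00000016325. Its levels were 6.30 FPKM for N, 7.98 FPKM for H, 14.9 FPKM for 75C, 25.8 FPKM for 50CSN and 23.2 FPKM for 50CSH, a crossbred mean 2.98 times the purebred mean. At XLOC_014178, a locus of 143 nt on chromosome 21 from 623194 to 623336, the purebreds were far apart, at 65.7 FPKM for N and 32.4 FPKM for H, and the crossbreds stood at 109.8 FPKM for 75C, 111 FPKM for 50CSN and 134 FPKM for 50CSH. XLOC_004819 (ENSBTAT00000011605), on chromosome 13 from 82731185 to 82739260, had close values within each class. It was at 43.7 FPKM for N and 43.2 FPKM for H, and at 66.6 FPKM for 75C, 68.05 FPKM for 50CSN and 66.4 FPKM for 50CSH, so the crossbreds were spread by 0.03 on the log2 scale. XLOC_025123, on chromosome 7 from 87508171 to 87650770, was at 9.65 FPKM for N, 9.33 FPKM for H, 15.9 FPKM for 75C, 18.9 FPKM for 50CSN and 27.8 FPKM for 50CSH. XLOC_000631 (ENSBTAT00000002828), on chromosome 1 from 65400346 to 65408188, was at 14.2 FPKM for N, 11.5 FPKM for H, 22.6 FPKM for 75C, 29.7 FPKM for 50CSN and 30.7 FPKM for 50CSH. The other 3, XLOC_030072, XLOC_031111 and XLOC_020833, had no Ensembl ID, and their crossbred means were 2.33, 1.74 and 1.85 times the purebred means.

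Under 10 FPKM were 23 of the 44 (52.3 percent), near the 47.6 percent of all kept loci, and the widest gaps were found here. A low locus needs a larger ratio to reach the same gap, because 1 FPKM is added before the logarithm. The widest gap of all was 1.23, at XLOC_026728 (ENSBTAT00000015694), on chromosome 8 from 88187523 to 88203623. It stood at 1.59 FPKM for N, 2.03 FPKM for H, 9.31 FPKM for 75C, 17.1 FPKM for 50CSN and 6.13 FPKM for 50CSH, and its crossbred mean was 5.99 times its purebred mean. Even so the crossbreds were spread by 1.34 on the log2 scale, more than the gap. XLOC_030066, of 223 nt on an unplaced sequence, had a gap of 1.17, with 2.91 FPKM for N, 3.45 FPKM for H, 15.04 FPKM for 75C, 13.3 FPKM for 50CSN and 9.04 FPKM for 50CSH. At XLOC_028020, on an unplaced sequence, the levels were 0.239 FPKM for N, 0.854 FPKM for H, 3.06 FPKM for 75C, 3.32 FPKM for 50CSN and 3.50 FPKM for 50CSH. The fourth gap above 1 belonged to XLOC_001895, of 580 nt on chromosome 10 from 23247195 to 23247774, at 2.22 FPKM for N, 3.10 FPKM for H, 18.2 FPKM for 75C, 8.02 FPKM for 50CSN and 7.68 FPKM for 50CSH.

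Of the 23 low loci, 10 carried an Ensembl ID. XLOC_012428, on chromosome 2 from 38770596 to 38826600 with ENSBTAT00000046063 and ENSBTAT00000046111, was at 3.56 FPKM for N, 3.23 FPKM for H, 7.97 FPKM for 75C, 10.3 FPKM for 50CSN and 8.18 FPKM for 50CSH. XLOC_007540 (ENSBTAT00000020221), on chromosome 16 from 2115472 to 2122446, was at 1.498 FPKM for N, 2.56 FPKM for H, 6.59 FPKM for 75C, 5.19 FPKM for 50CSN and 5.08 FPKM for 50CSH. XLOC_024767 (ENSBTAT00000044822), on chromosome 7 from 18371487 to 18379418, was at 2.35 FPKM for N, 2.41 FPKM for H, 4.92 FPKM for 75C, 4.61 FPKM for 50CSN and 4.26 FPKM for 50CSH. At these 3 loci the crossbreds were spread by at most 0.34 on the log2 scale, while H and N differed by 0.51 at XLOC_007540. XLOC_017133 (ENSBTAT00000010915, chromosome 25), XLOC_030278 (ENSBTAT00000007916, unplaced sequence) and XLOC_018261 (ENSBTAT00000056117, chromosome 28) lay under 3 FPKM in every library but 50CSN and 50CSH, where XLOC_030278 reached 3.06 FPKM and 3.26 FPKM.

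Among the low loci without an Ensembl ID, XLOC_007157, of 496 nt on chromosome 15, was at 1.39 FPKM for N, 1.47 FPKM for H, 3.34 FPKM for 75C, 3.42 FPKM for 50CSN and 4.05 FPKM for 50CSH. XLOC_026919, of 377 nt on chromosome 8, was at 2.97 FPKM for N, 3.24 FPKM for H, 6.03 FPKM for 75C, 5.63 FPKM for 50CSN and 5.84 FPKM for 50CSH, and its crossbreds were spread by 0.08 on the log2 scale, the least of the 23.

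A listed 0 occurred at 2 of the 44, where it can be a failed estimate, so no fold is given against it. XLOC_026873, of 374 nt on chromosome 8 from 30171871 to 30172244, was listed at 0 for N and H and stood at 1.29 FPKM for 75C, 0.745 FPKM for 50CSN and 3.11 FPKM for 50CSH. XLOC_023459, in the span from 26171586 to 26451968 of chromosome 5, was listed at 0 for H and stood at 2.49 FPKM for N, 12.9 FPKM for 75C, 4.47 FPKM for 50CSN and 6.33 FPKM for 50CSH. Over all kept loci 225 of 13871 (1.62 percent) had a listed 0 in at least 1 library.

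Some loci missed the rule by little. Just inside it were XLOC_005358 on chromosome 13, XLOC_030211 on an unplaced sequence and XLOC_019834 on chromosome 3, all without an Ensembl ID and each with a gap of 0.59. Just outside were 3 loci with an Ensembl ID, each with a gap of 0.58. XLOC_018374 (ENSBTAT00000046544, chromosome 28) was at 3.20 FPKM for N, 5.73 FPKM for H, 9.06 FPKM for 75C, 20.02 FPKM for 50CSN and 10.8 FPKM for 50CSH. XLOC_007366 (ENSBTAT00000019184, chromosome 16) was at 1018 FPKM for N, 1026 FPKM for H, 1686 FPKM for 75C, 1818 FPKM for 50CSN and 1534 FPKM for 50CSH. XLOC_002540 (ENSBTAT00000026259, chromosome 11), above any of the 44 in level, was at 3911 FPKM for N, 4596 FPKM for H, 7333 FPKM for 75C, 8539 FPKM for 50CSN and 6859 FPKM for 50CSH.

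**Figure D2:**
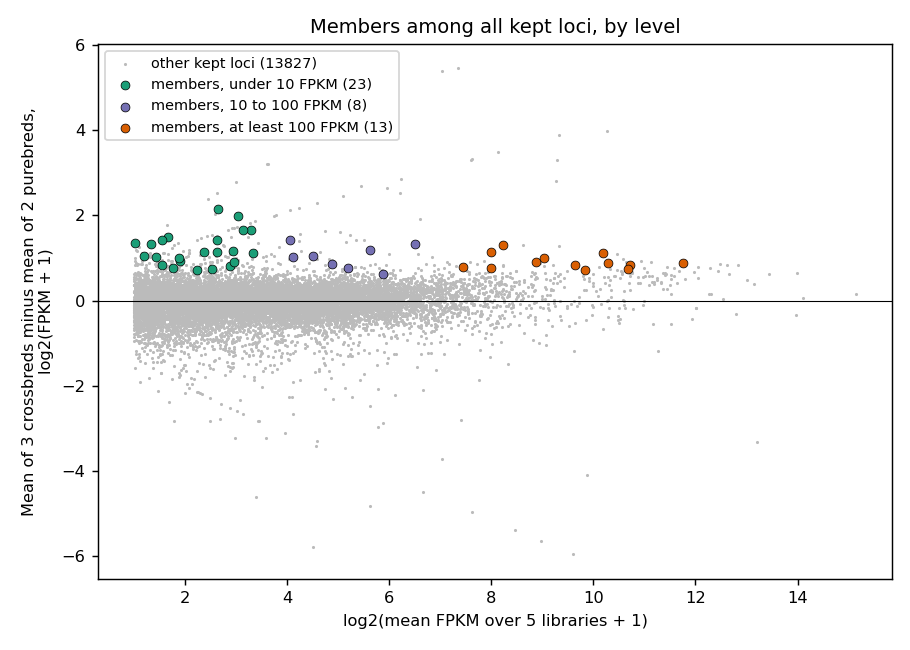
Difference between the mean of the 3 crossbreds and the mean of the 2 purebreds in log2(FPKM + 1), on the y axis, against the log2 of the mean FPKM plus 1, on the x axis. Grey points are the other kept loci and coloured points the 44 chosen loci in 3 ranges of level, 23 under 10 FPKM, 8 from 10 to 100 FPKM and 13 at or above 100 FPKM.

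The difference between the purebreds did not enter the rule as a contrast, so it was set beside all kept loci. By 2-fold or more, none of the 44 was higher in H, where 1.46 percent of all kept loci were. One of the 44 was at least 2-fold lower in H, XLOC_023459 with its listed 0, where 1.86 percent of all kept loci were. The median absolute difference between H and N was 0.11 over the 44 and 0.15 over all kept loci. XLOC_014178 came next, just short of 2-fold lower in H, and XLOC_019834 followed with -0.95, from 3.95 FPKM for N to 1.56 FPKM for H. Highest in H relative to N was XLOC_018261, at 0.122 FPKM for N and 0.722 FPKM for H, a difference of 0.62. With 1 library a population none of these differences has a test, and a rule that needs both purebreds below all crossbreds leaves less room for purebreds that are far apart.

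Among the crossbreds the 44 loci were not at 1 level either. Their median absolute difference was 0.24 between 75C and 50CSN, 0.23 between 75C and 50CSH and 0.22 between the reciprocal crosses, against 0.19, 0.18 and 0.15 over all kept loci. Of the 44, 3 were at least 2-fold higher in 75C than in 50CSN (2.22 percent of all kept loci) and 1 was lower (1.36 percent). The 3 were XLOC_022789, XLOC_023459 and XLOC_001895. XLOC_022789, in the span from 9702289 to 9756326 of chromosome 5, was at 5.10 FPKM for 75C, 1.27 FPKM for 50CSN and 2.59 FPKM for 50CSH, and at 0.405 FPKM for N and 0.348 FPKM for H. Of its level in 75C, 4.39 FPKM belonged to a transcript listed at 0 in all the other libraries. No single transcript of XLOC_022789 had a mean of 1 FPKM or lay above both purebreds in every crossbred, so only their sum did. The lower one was XLOC_011657, of 428 nt on chromosome 19, at 3.52 FPKM for 75C, 10.6 FPKM for 50CSN and 8.03 FPKM for 50CSH, with 1.96 FPKM for N and 1.87 FPKM for H.

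Against 50CSH, 1 of the 44 was at least 2-fold higher in 75C (2.54 percent of all kept loci), again XLOC_001895, and 0 were lower (1.07 percent). Between the reciprocal crosses 2 were at least 2-fold higher in 50CSH than in 50CSN (1.25 percent of all kept loci) and 1 was lower (1.56 percent). The 2 were XLOC_026873 and XLOC_019326, the latter of 383 nt on chromosome 29, at 0.240 FPKM for N, 0.286 FPKM for H, 1.54 FPKM for 75C, 1.43 FPKM for 50CSN and 4.06 FPKM for 50CSH. The lower one was XLOC_026728, which held the widest gap. Every locus at least 2-fold apart between crossbreds had a mean under 10 FPKM. The number of reads behind these values is not known.

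**Figure D3:**
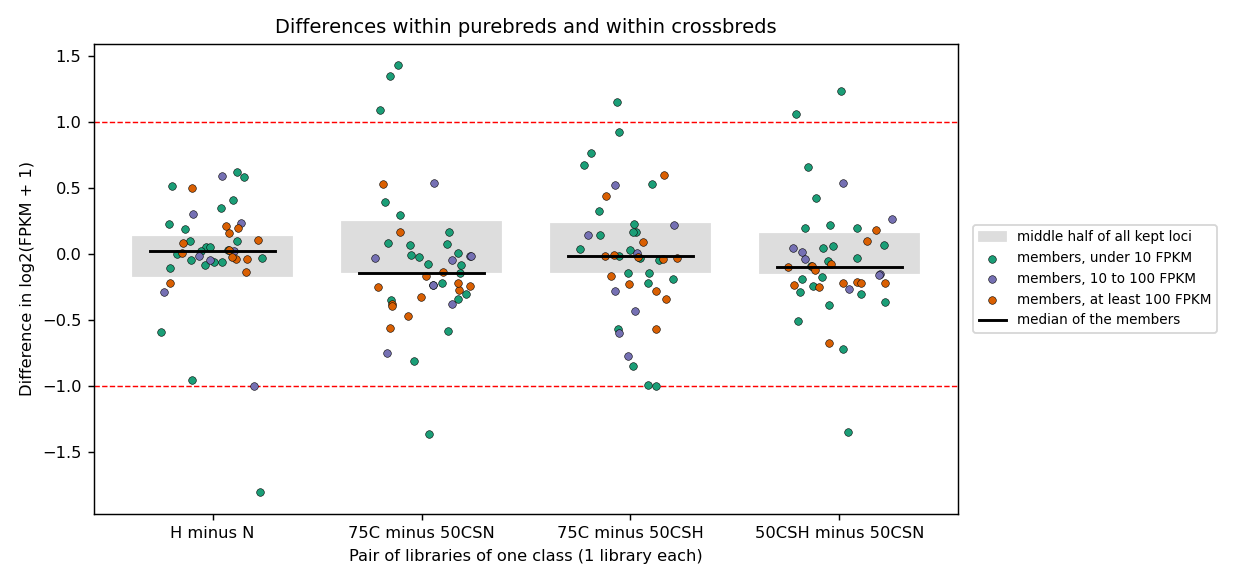
Differences in log2(FPKM + 1) between H and N and between each pair of crossbreds, 1 library each, for the 44 loci as points coloured by level. The grey boxes span the lower to the upper quartile of all kept loci, the black lines are the medians of the 44, from -0.14 to 0.03, and the dashed lines mark 2-fold. Most points lie within 2-fold, and those beyond it are loci under 10 FPKM.

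The order of the crossbreds leaned toward 50CSN. At 23 of the 44 loci (52.3 percent) 50CSN was the highest crossbred, at 12 (27.3 percent) it was 50CSH and at 9 (20.5 percent) it was 75C. Over all kept loci 50CSN was highest at 28.0 percent, 50CSH at 29.4 percent and 75C at 42.6 percent. The lowest crossbred was 75C at 21 loci, 50CSH at 15 and 50CSN at 8. Over all kept loci 75C was lowest at 30.6 percent, 50CSH at 31.1 percent and 50CSN at 38.3 percent. At the 13 loci of at least 100 FPKM, 50CSN was highest at 10 and 75C lowest at 9, with median ratios to the purebred mean of 1.72 for 75C, 2.01 for 50CSN and 1.77 for 50CSH. Below 10 FPKM the crossbreds shared the first place, with 9 loci highest in 50CSN, 7 for 75C and 7 for 50CSH. Of the kept loci above both purebreds in every crossbred by any gap, 50CSH was highest at 41.6 percent, 50CSN at 38.8 percent and 75C at 19.6 percent, and 75C was lowest at 51.4 percent, so the low place of 75C was not confined to the 44. Among the 44, 50CSN was highest at 23 and 50CSH at 12 after median-of-ratios scaling, and at 21 and 15 after quantile normalization. With every library scaled to the same summed FPKM the counts were 18 and 16. The lead of 50CSN was thus kept under these 3 scalings, unchanged with the first and narrower with the others. In the same order, 50CSN was highest at 33.5, 31.9 and 19.0 percent of all kept loci, and 50CSH at 30.2, 34.2 and 45.9 percent. The lowest crossbred was 75C at 23 of the 44 with equal sums, at 24 after median-of-ratios scaling and at 23 after quantile normalization. In the same order, 75C was lowest at 33.5, 37.3 and 40.1 percent of all kept loci, so its share there also rose with each rescaling.

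Annotation and length, which the rule did not use, differed from those of the kept loci as a whole. An Ensembl transcript ID was present at 23 of the 44 (52.3 percent), against 84.1 percent of all kept loci and 82.1 percent of the 196 loci below both purebreds. A single transcript was assembled at 28 of the 44 (63.6 percent), against 27.0 percent of all kept loci. Spans under 1000 nt made up 18 of the 44 (40.9 percent), against 7.11 percent of all kept loci and 9.69 percent of the 196. Spans under 300 nt, all 7 of them without an Ensembl ID, made up 15.9 percent, against 1.74 percent of all kept loci. Median span was 5620 nt for the 44 and 26934 nt for all kept loci. FPKM of a short locus depends strongly on the length the model assigns to it, and the sources used here do not state its settings. The part of length in the rise was not tested.

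Short spans were also found among the abundant loci. Of the 13 loci of at least 100 FPKM, 6 had spans under 1000 nt and 8 a single transcript. XLOC_008716, XLOC_031814, XLOC_013546, XLOC_020475, XLOC_028686 and XLOC_025902 are these 6, with spans of 345, 264, 469, 430, 137 and 139 nt. XLOC_013546 and XLOC_020475 carry an Ensembl ID and the other 4 do not. How many of the 882 kept loci of at least 100 FPKM are short or have a single transcript is not given here. These counts are therefore not compared with that level as a whole. The 44 loci took 1.17 percent of the summed FPKM for N and 1.22 percent for H, against 1.80 percent for 75C, 2.09 percent for 50CSN and 2.02 percent for 50CSH. The other loci shorter than 300 nt and lacking an Ensembl ID made up 15.2 percent for N, 13.9 percent for H, 17.9 percent for 75C, 11.9 percent for 50CSN and 12.7 percent for 50CSH, so the class as a whole did not rise in the 50 percent crosses.

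In the genome the 44 were scattered. They lay on 20 chromosomes and 7 unplaced sequences, and no chromosome held more than 3. Unplaced sequence held 7 of the 44 (15.9 percent), against 6.45 percent of all kept loci. Neighbouring loci of the 44 were within 1 Mb of each other in 2 cases, both on chromosome 10, where XLOC_001889, XLOC_001895 and XLOC_002342 lie between 22589955 and 24211400. Between 20 and 26 Mb of that chromosome 3 of 118 kept loci (2.54 percent) were among the 44, against 0.317 percent of all kept loci. The window holds the 3 loci just named and was set with results of these data known. Its share is therefore a description, and no cluster is read from it. By any gap, 27 of the 118 lay above both purebreds in every crossbred and 27 below. Over all kept loci 21.0 percent lay above and 22.3 percent below. XLOC_002342, of 313 nt, was at 4.02 FPKM for N, 5.65 FPKM for H, 10.3 FPKM for 75C, 15.9 FPKM for 50CSN and 9.27 FPKM for 50CSH. Annotated loci within a 1 Mb window around the locus numbered 15 at the median for those of the 44 on chromosomes and 16 for all kept loci there.

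A span is a stretch that the assembly treated as 1 block, and loci that share it can share reads. The library protocol in the labels names no step that keeps the strand, and whether reads of overlapping loci on opposite strands were told apart is not stated. Of the 44, 30 were alone in their span, 6 shared it only with loci under 1 FPKM and 8 shared it with other kept loci. Any shared span was thus found at 31.8 percent of the 44, against 36.4 percent of all kept loci. A span shared with another kept locus was found at 18.2 percent of the 44, against 27.4 percent of all kept loci. When all kept loci of the span were summed, 2 of these 8 still passed the 1.5-fold gap, 4 lay above both purebreds by less and 2 did not lie above both. XLOC_010889 passed: its span on chromosome 19 was at 201 FPKM for N, 171 FPKM for H, 361 FPKM for 75C, 436 FPKM for 50CSN and 466 FPKM for 50CSH, and the locus made up 91.1 percent of it. That span also held XLOC_010900 (ENSBTAT00000049221), at 5.56 FPKM for N and 6.71 FPKM for H and listed at 0 in the crossbreds, the 1 neighbour that lay at least 1.5-fold below both purebreds in every crossbred. XLOC_005054 also passed, with a gap of 0.61 for a span of 26 kept loci, of which it made up 81.3 percent. Of its 25 neighbours, 11 were below both purebreds in every crossbred and 4 above, by any gap. Over all kept loci 22.3 percent lay below and 21.0 percent above.

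Sums over the span fell short elsewhere. At XLOC_001889 on chromosome 10 the gap went from 0.60 for the locus to 0.42 for the span of 4 kept loci, which was at 532 FPKM for N, 500.2 FPKM for H, 846 FPKM for 75C, 1021 FPKM for 50CSN and 713 FPKM for 50CSH. For XLOC_028020 it went from 1.13 to 0.25, for XLOC_023459 from 0.65 to 0.19 and for XLOC_022789 from 0.69 to 0.12. XLOC_000464 (with ENSBTAT00000004104, chromosome 1) was at 4.06 FPKM for N, 4.15 FPKM for H, 7.64 FPKM for 75C, 8.57 FPKM for 50CSN and 7.47 FPKM for 50CSH, but its span was at 38.1 FPKM for N, 34.6 FPKM for H, 40.5 FPKM for 75C, 33.5 FPKM for 50CSN and 32.4 FPKM for 50CSH. The span's values overlapped between the groups, with 50CSN and 50CSH below both purebreds. XLOC_014330 (ENSBTAT00000004876, chromosome 22) was at 0.601 FPKM for N, 0.715 FPKM for H, 2.31 FPKM for 75C, 2.86 FPKM for 50CSN and 1.95 FPKM for 50CSH and made up 1.17 percent of its span. That span was at 154 FPKM for N, 173 FPKM for H, 119.6 FPKM for 75C, 133 FPKM for 50CSN and 140.2 FPKM for 50CSH, so all 3 crossbreds lay below both purebreds there.

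The ID of XLOC_014330 was also given to a neighbour, XLOC_014328, at 18.8 FPKM for N, 16.4 FPKM for H, 18.1 FPKM for 75C, 19.8 FPKM for 50CSN and 18.001 FPKM for 50CSH. The part of that annotated transcript held by the larger locus thus overlapped between the groups. XLOC_022789 likewise shared ENSBTAT00000021056 with XLOC_022788, at 1.91 FPKM for N, 2.71 FPKM for H, 6.08 FPKM for 75C, 6.20 FPKM for 50CSN and 2.45 FPKM for 50CSH. In all 4 of the 44 shared an Ensembl ID with another locus, and at 2 of them, XLOC_017133 and XLOC_018261, the other locus was under 1 FPKM.

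**Figure D4:**
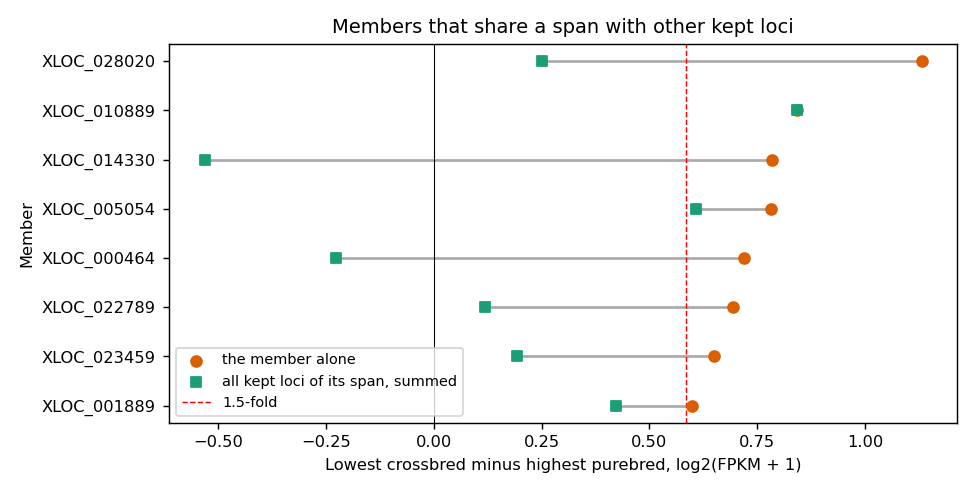
Lowest crossbred minus highest purebred in log2(FPKM + 1), for the 8 loci that share a span with other kept loci. Circles give the locus alone, squares the sum of all kept loci of its span, and the dashed line marks 1.5-fold. The squares of XLOC_010889 and XLOC_005054 lie beyond the line, and those of XLOC_014330 and XLOC_000464 lie below 0.

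Several transcripts were assembled at 16 of the 44. At 8 of these the most abundant transcript passed the 1.5-fold gap by itself, and at 6 no single transcript did, so there only the sum passed. At 4 of these 6 at least 1 transcript lay above both purebreds in every crossbred by a smaller gap, among them XLOC_004819, whose leading transcript held 98.2 percent of the locus with a gap of 0.49. XLOC_005776 was uniform, with all 3 transcripts past the gap. Its 2 larger ones were at 475 FPKM for N, 519 FPKM for H, 817 FPKM for 75C, 1151 FPKM for 50CSN and 979 FPKM for 50CSH, and at 179 FPKM for N, 184 FPKM for H, 379 FPKM for 75C, 611 FPKM for 50CSN and 532 FPKM for 50CSH. In XLOC_023060 the rise came from 1 transcript without an Ensembl ID, which made up 95.04 percent of the locus and stood at 578 FPKM for N, 623 FPKM for H, 972 FPKM for 75C, 1155 FPKM for 50CSN and 986 FPKM for 50CSH. Another transcript of that locus without an Ensembl ID went the other way. It was at 30.6 FPKM for N and 23.5 FPKM for H, against 21.1 FPKM for 75C, 14.9 FPKM for 50CSN and 17.2 FPKM for 50CSH. The larger transcript of ENSBTAT00000012550 was at 24.5 FPKM for N and 24.1 FPKM for H. In the crossbreds it was at 26.8 FPKM for 75C, 18.5 FPKM for 50CSN and 20.4 FPKM for 50CSH, so the groups overlapped. The smaller transcript of that ID had a gap of 0.02.

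XLOC_026728 divided its level between transcripts differently in each crossbred. Its larger transcript was at 0.649 FPKM for N, 0.591 FPKM for H, 4.55 FPKM for 75C, 11.03 FPKM for 50CSN and 4.77 FPKM for 50CSH, a gap of 1.75. A smaller one was at 0.938 FPKM for N, 1.42 FPKM for H, 4.22 FPKM for 75C, 4.91 FPKM for 50CSN and 0.713 FPKM for 50CSH, so 50CSH was below both purebreds there. At XLOC_001889 the transcript of ENSBTAT00000046304 passed alone, at 70.1 FPKM for N, 105 FPKM for H, 277 FPKM for 75C, 313 FPKM for 50CSN and 185 FPKM for 50CSH, while the more abundant one, of ENSBTAT00000000553, did not. At XLOC_000464 the transcript holding 62.9 percent of the locus overlapped between the groups, at 4.06 FPKM for N, 3.28 FPKM for H, 4.34 FPKM for 75C, 3.58 FPKM for 50CSN and 4.79 FPKM for 50CSH. A second transcript was highest in 75C, at 3.30 FPKM, with 0.862 FPKM for H and 0.361 FPKM for 50CSN, and was listed at 0 for N and 50CSH. The third was at 4.62 FPKM for 50CSN and 2.69 FPKM for 50CSH and listed at 0 in the other libraries, so different transcripts carried the sum in different crossbreds. At XLOC_025123 the transcripts of ENSBTAT00000052050 and ENSBTAT00000055919 had the same value in each library, 3.91 FPKM for N, 4.39 FPKM for H, 7.26 FPKM for 75C, 9.08 FPKM for 50CSN and 13.9 FPKM for 50CSH. With these values counted once, an alternative added after the data were seen, the gap was 0.51 and XLOC_025123 did not pass. Whether the deposited values divide the same reads between both transcripts was not tested.

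The authors' deposited table of the pooled crossbred against the pooled purebred populations calls 13 of the 84 transcripts of these loci, in 12 of the 44, all higher in crossbreds. In that table of the authors 0.307 percent of tested transcripts are called higher, and since the loci were chosen by the same contrast nothing is read from the difference. By level, the authors' deposited table calls 9 of the 13 loci of at least 100 FPKM, 1 of the 8 between 10 and 100 FPKM and 2 of the 23 below. The share called among all loci of each level is not given here, so nothing is read from this split. The smallest q-value of the called transcripts, 0.0093, is shared by 9 of the 13 in the authors' deposited table, 1 of them that of XLOC_026873 with its listed zeros. The largest log2 fold change above 0 in both classes is 3.60 in the authors' deposited table, for a transcript of XLOC_026728 with a q-value of 0.016.

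Between H and N and between the crossbreds the authors' deposited table calls 0 of the 84 transcripts, with a smallest q-value of 0.89 in each of these 4 comparisons. Between 60 and 70 of the 84 were tested there, and the authors' deposited table calls few transcripts in all: 0.0796 percent of those tested between H and N, 0.0849 percent between 50CSN and 75C, 0.0574 percent between 50CSH and 75C and 0.0477 percent between 50CSH and 50CSN. A count of 0 among the 84 is near these shares. Across the 6 comparisons of a crossbred with a purebred library, 1 transcript is called in the authors' deposited table, that of XLOC_013546, higher in 50CSN than in N with a log2 fold change of 1.16 and a q-value of 0.043. That comparison calls 0.0320 percent of its tested transcripts higher in the authors' deposited table.

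The number of the 44 that passed differed between scalings of the libraries. With the deposited values scaled by the median of ratios 38 of the 44 passed, and after quantile normalization 34 did. After each library was given the same summed FPKM, an alternative added after the data were seen, 14 of the 44 passed. All 44 lay above both purebreds in every crossbred, which these scaling factors, from 0.927 for 50CSN to 1.078 for H, could not change. The factors are too alike to close the gap that the rule requires, so nothing about stability is read from that count. Under that scaling the median of all kept loci moved to -0.16, and the median difference of the 44 went from 1.02 to 0.88. Quantile normalization affected the loci of at least 100 FPKM the most, where 3 of the 13 passed. Of these 13, 11 passed with the median of ratios and 1, XLOC_010889, with equal sums. Of the 8 loci between 10 and 100 FPKM, 7 passed with the median of ratios, 8 after quantile normalization and 1 with equal sums. Of the 23 loci under 10 FPKM, 20 passed with the median of ratios, 23 after quantile normalization and 12 with equal sums. The 44 loci held 8.03 percent of the difference in summed FPKM between the mean crossbred and the mean purebred library, so the sums remained unequal without them, at 726677 for N, 724871 for H, 828165 for 75C, 835042 for 50CSN and 773174 for 50CSH. All loci of at least 100 FPKM, 13 of the 44 among them, held 105.6 percent of that difference between the mean libraries. Their sum was 509466 in the mean purebred and 608665 in the mean crossbred library, while the loci under 100 FPKM together summed lower in crossbreds.

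**Figure D5:**
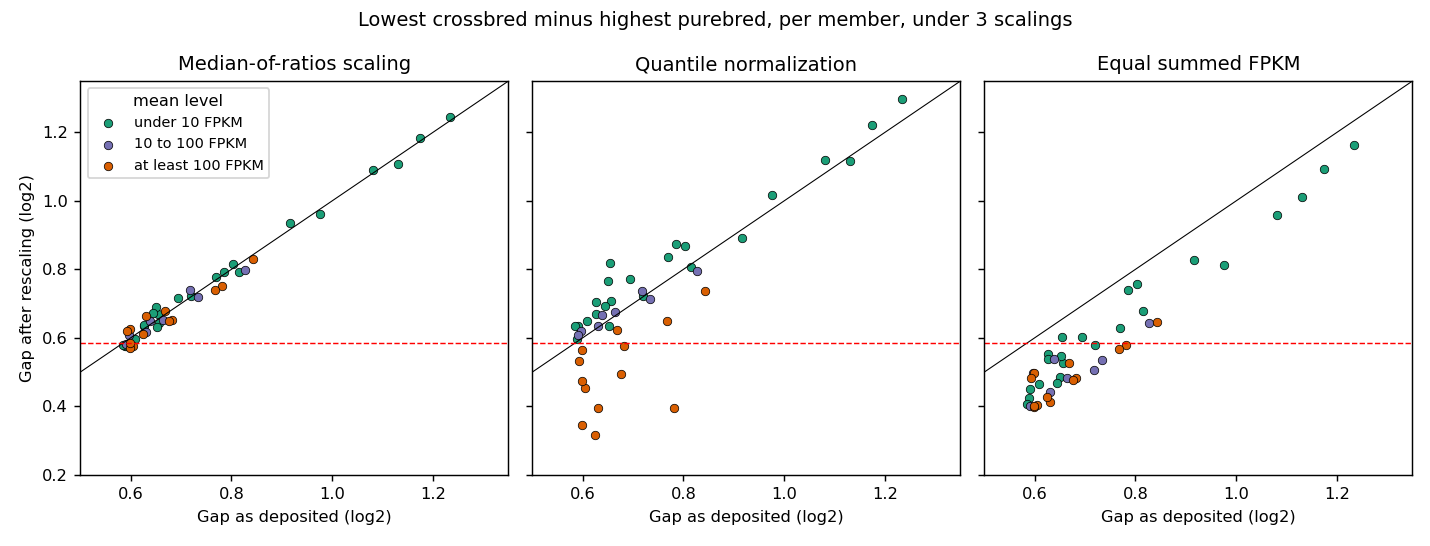
Gap between the lowest crossbred and the highest purebred in log2(FPKM + 1) for each of the 44 loci, as deposited on the x axis and after 1 of 3 scalings on the y axis, coloured by mean level. The solid line marks equal values and the dashed line 1.5-fold. Points below the dashed line, 6 with the median of ratios, 10 after quantile normalization and 30 with equal sums, no longer pass.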

How the data were processed

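RNA of white blood cells from 5 cattle populations, 1 library each, was sequenced from poly(A)-selected cDNA. Reads were processed with Cufflinks 2.2.1.0 and TopHat2 2.0.9, per the submitters' processing notes. Their settings, the genome build and the annotation are not given in the sources used. Deposited by the authors were FPKM values for 72812 transcripts in tables that hold a Cuffdiff comparison per the file headers, with log2 fold changes, p-values and q-values of the authors' own tests (p-value and log2 columns as deposited). A library had the same value in each of its comparisons. Depth is not given.

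Transcripts were summed per locus, 1 FPKM was added before log2, and a locus was kept at a mean of 1 FPKM or more. With 1 library per population no test was run. Pairs of libraries of a class were described by the loci at least 2-fold apart. The deposited start of a span was taken to count from 0, and 1 was added. None of the 31460 Ensembl IDs matched the RefSeq gene table (37063 genes, none with an Ensembl ID), so the marker lists of leukocyte types and of the interferon response were not read. Named loci were those with the widest gap, level, listed zeros, difference within a class, nearness to the threshold or a falling neighbour in the span. The loci and lists were chosen with earlier results of these data known. Alternatives were a pseudocount of 0.1, other filters and scalings, values per transcript or span, a 2-fold gap and each library left out. The software was matplotlib 3.10.9, scipy 1.17.1, numpy 2.4.6 and pandas 2.3.3 under Python 3.11.15.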

Additional observations from a re-analysis of the deposited data

How the results depend on the processing

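The number of loci above both purebreds in every crossbred was 44 and lay between 31 and 46 without a filter, with a mean of at least 5 FPKM, after median-of-ratios scaling (42, 38 of them among the 44) or quantile normalization (45, 34 among the 44), per span, with loci above 0 in all libraries, without loci under 300 nt that lack an Ensembl ID, and with identical transcripts of a locus counted once (43, all among the 44). The last 2 of these were added after the data were seen. It was 76 with a pseudocount of 0.1, 246 per transcript, 4 with a 2-fold gap and 14 with equal summed FPKM, a scaling also added after the data were seen. Without N it was 201, without H 222, without 75C 165, without 50CSN 92 and without 50CSH 120, where a rule over fewer libraries is easier to meet. At least 42 of the 44 passed each time. Leaving out a library cannot make a gap smaller, so nothing about stability is read from that count. The following counts are of the loci that passed under the same setting. With a pseudocount of 0.1 they were at least 2-fold apart as follows: H above N 4 and below 6, 75C above 50CSN 5 and below 5, 75C above 50CSH 6 and below 4, 50CSH below 50CSN 3. With a mean of at least 5 FPKM 0 were at least 2-fold higher in 50CSH than in 50CSN. After median-of-ratios scaling 2 were lower in 75C than in 50CSH. After quantile normalization 2 were lower in H than in N, 2 in 75C than in 50CSH and 2 in 50CSH than in 50CSN. The causes of these moves were not tested. Depth is unknown, so the counting error of the loci under 10 FPKM cannot be given.

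No paired analysis was possible because each population has 1 library.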
